A study of Homo sapiens with 10 samples.

Results

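The effect of an siRNA against p53 was measured in SKBR3 cells that had received calcitriol, by setting 3 arrays of p53 siRNA (p53i) against 3 arrays of LacZ siRNA (LacZi) at matched times. These 6 arrays are the calcitriol-treated arrays among the 10 of the series, and were chosen by their treatment label. SKBR3 is an established breast carcinoma line with amplified ERBB2 (HER2), and the labels give all 10 arrays as carrying the same mutant p53. Cells in charcoal-stripped serum were transfected with siRNA oligonucleotides against p53 or, as negative control, against the bacterial LacZ gene, which these cells lack. They then received 1alpha,25-dihydroxyvitamin D3 (D3) at 100 nM for 8, 20 or 50 h, with 1 array for each siRNA at each time. The interval between transfection and D3 is 24 h in the sample text and 48 h in the series text, and nothing in the sources used here settles it. The 4 other arrays, 2 for each siRNA, had no D3. All samples come from a single cell line and a single p53 siRNA label, and the oligonucleotide sequences were not used here. A title, that of the 8 h sample with p53 siRNA, gives the siRNA's name in another spelling, and the group of this sample was taken from its source name and siRNA label. Nothing in the labels says that the D3 arrays came from separate cultures, and the p-values below then measure only spread among these arrays, which may be technical. The level of the siRNA's own target mRNA was not analysed here, and how far it was lowered is not known from these values.

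Wild-type p53 is a transcription factor that activates cell-cycle arrest and apoptosis genes after damage. Many tumours carry missense mutants that accumulate and bind other transcription factors. D3 is the ligand of the vitamin D receptor, VDR, which pairs with retinoid X receptors on DNA and strongly induces CYP24A1, the enzyme that degrades D3. The comparison asks how lowering mutant p53 changes transcript levels in cells under D3. Interferons are secreted ligands that signal through cell-surface receptors to transcription factors, among them IRF9. These bind the interferon-stimulated response element in promoters and induce antiviral genes.

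The upstream sequence of 4 of the most raised genes is shown because letters of the kind known from the interferon-stimulated response element recur in them. The letters searched for were GAAA, then any 2 bases, then GAAA, on both strands and with overlaps allowed, and every match stands in capitals. A match on the other strand reads TTTC, any 2 bases, TTTC. Each sequence is the 250 bases before a RefSeq gene start on GRCh38.p14, 5′ to 3′ in the direction of transcription.
IFI27 (chr14:94110486-94110735, + strand): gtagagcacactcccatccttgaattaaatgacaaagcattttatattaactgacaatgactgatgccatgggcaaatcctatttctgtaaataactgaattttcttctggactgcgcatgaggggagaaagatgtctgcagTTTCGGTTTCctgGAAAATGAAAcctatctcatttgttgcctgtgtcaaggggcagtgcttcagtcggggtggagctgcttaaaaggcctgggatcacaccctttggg
IFIT1 (chr10:89392373-89392622, + strand): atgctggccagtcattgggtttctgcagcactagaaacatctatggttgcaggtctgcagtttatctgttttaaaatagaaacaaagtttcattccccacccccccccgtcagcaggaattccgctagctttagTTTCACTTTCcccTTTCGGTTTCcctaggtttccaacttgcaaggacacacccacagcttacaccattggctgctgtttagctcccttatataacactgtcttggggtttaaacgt
ISG15 (chr1:1013247-1013496, + strand): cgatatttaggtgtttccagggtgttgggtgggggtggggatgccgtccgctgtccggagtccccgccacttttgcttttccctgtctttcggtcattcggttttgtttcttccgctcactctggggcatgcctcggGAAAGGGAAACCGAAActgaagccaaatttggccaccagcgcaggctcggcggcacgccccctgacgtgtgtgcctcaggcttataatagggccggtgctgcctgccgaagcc
IFI6 (chr1:27672193-27672442, - strand): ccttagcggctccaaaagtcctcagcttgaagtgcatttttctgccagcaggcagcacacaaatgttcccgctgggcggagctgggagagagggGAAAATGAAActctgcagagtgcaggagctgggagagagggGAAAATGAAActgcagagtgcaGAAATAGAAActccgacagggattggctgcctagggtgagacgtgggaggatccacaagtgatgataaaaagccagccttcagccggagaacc

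In windows of 300 bases, from 250 before to 50 after each listed start, the letters occurred in at least 1 window of 1195 of 27305 genes (4.38%) in the table. Among the genes tested on the arrays, 360 of the 9763 with a window (3.69%) held them. Of the 12 largest rises in p53i cells, 11 had a window and 7 held a match, namely IFI27, IFIT1, ISG15, BST2, MX1, OAS3 and IFI6. Of the 12 largest falls, 10 had a window and 0 held a match. Over all genes that passed the test, 25 of 253 risen genes with a window (9.88%) and 6 of 243 fallen genes (2.47%) held the letters. Among 23 tested genes listed as interferon-induced antiviral effectors, 21 had a window and 17 (81.0%) held a match. The risen ones of these 17 are part of the 25, and the share among the remaining risen genes was not counted. A match is a description of sequence and not a measured binding site.

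The siRNAs differed at 600 of 12022 genes under D3 (4.99%), by limma's moderated test with D3 time as a block and a Benjamini-Hochberg adjusted p below 0.05. In p53i cells 309 genes rose (2.57% of those tested) and 291 fell (2.42%). Most changes were small, with a median log2 difference of 0.52 among rises and -0.51 among falls, and 32 rises and 23 falls reached 2-fold. A log2 difference here is p53i minus LacZi on the log2(signal + 16) scale, averaged over the 3 times, and it understates changes of weakly expressed genes. All 600 differences had the same sign at 8, 20 and 50 h, against 5177 of the 12022 genes tested (43.1%). The test was made on these same 3 differences and favours genes whose pairs agree, so this follows from the selection and is not separate support. The median over all genes tested was -0.01. Signals of the 3 p53i and the 3 LacZi arrays did not overlap for 2777 of the genes tested (23.1%), which is the background for the separate groups named below.

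RNA quality differed between some of the arrays. The ratio of 3' to 5' signal of the ACTB control probe sets, which goes up when RNA is degraded or labelling is short, was 5.05, 4.80 and 4.60 in LacZi cells at 8, 20 and 50 h, and 4.77, 7.11 and 6.12 in p53i cells. The means were 4.82 ± 0.223 and 6.00 ± 1.17 (SD, n = 3 each, exact two-sided permutation p = 0.3, where 0.1 is the smallest this design allows). With this ratio as a covariate beside the time block, 64 genes passed, of which 48 were among the 600, and with the ratio in place of the block 0 passed in limma, with 1044 at an unadjusted p below 0.05. Without the time block 199 genes passed, all among the 600. Without the block, leaving out the p53i 20 h array left 0 genes and leaving out any other array left 22 to 386. For 73 of the genes named in the text that passed under D3, calls were compared without each time pair in turn and without the block. Of these 73, 28 kept their call in all 4 settings. At least 1 left-out pair removed the call of 35, and leaving out the block that of 40. Other named genes that passed, among them HERC6, IFITM3, ELF3, SLC40A1 and IL17C, were not in this count. Median signals of the 6 arrays were 40.3 to 44.3. The cells carried the markers of the line, with ERBB2 signals of 13800 to 19100 and KRT19 signals of 18500 to 27800, against 0.571 to 20.9 for the leukocyte gene PTPRC and 4.77 to 33.6 for the hepatocyte gene ALB. Probe sets named COL1A1 (fibroblast) and PECAM1 (endothelial) read 272 to 450 and 84.7 to 136, and 0 of the 9 tested members of 4 lists of other cells' markers passed in limma. At an unadjusted p below 0.05 stood 1 gene each of the fibroblast, endothelial and hepatocyte lists, against 2593 of all 12022 genes (21.6%).

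**Figure D1:**
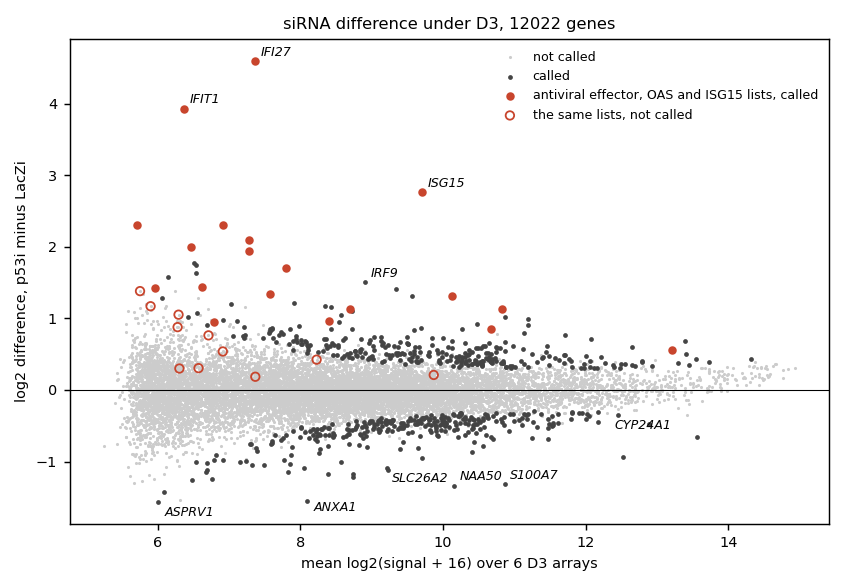
Each point is 1 of 12022 genes, with its mean log2(signal + 16) over the 6 D3 arrays on the x axis and its log2 difference, p53i minus LacZi, on the y axis. Black points and filled red points passed the test, and red marks the antiviral effector, oligoadenylate synthetase and ISG15 lists. IFI27 and IFIT1 stand highest, at 4.59 and 3.93, and most of the other called genes lie within 1 log2 unit of 0.

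Interferon-induced genes led the rises, and 9 of the 12 largest belong to the antiviral effector, oligoadenylate synthetase or ISG15 lists. IFI27, an interferon-induced protein of mitochondrial and nuclear membranes, had signals of 8.69, 6.66 and 52.1 in LacZi cells at 8, 20 and 50 h, whereas p53i cells gave 270.2, 1060 and 1704. Its log2 difference was 4.59 ± 0.31 (SE, 3 pairs, limma adjusted p = 0.000198). The groups did not overlap, and the LacZi values lay near the bottom of the range of the arrays, where a fold depends on the offset: the difference was 5.77 without the offset and 3.37 when the offset was 64.

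IFIT1, which binds viral RNA that lacks host cap methylation, read 2.33, 4.05 and 10.1 in LacZi cells against 121.5, 356.6 and 647.7 in p53i cells. Its log2 difference was 3.93 ± 0.34 (limma adjusted p = 0.000597), and here too the LacZi values were near background and no p53i value reached down to them. ISG15, a ubiquitin-like protein that is attached to other proteins during antiviral responses, was well expressed with either siRNA. It read 240.3, 282.4 and 422.3 in LacZi cells against 1085, 2234 and 4183 in p53i cells. The log2 difference was 2.76 ± 0.18, or 6.77-fold on the offset scale (limma adjusted p = 0.000153).

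OAS1 and OAS3 make the 2-5A messenger that activates RNase L. OAS1 read 49.3, 76.6 and 54.8 in LacZi cells compared with 164.1, 313.5 and 544.2 in p53i cells, a log2 difference of 2.09 (limma adjusted p = 0.00471). OAS3 read 70.5, 48.6 and 73.7 against 152.6, 294.7 and 531.2, a log2 difference of 1.95 (adjusted p = 0.00899). Both sets of groups were apart at every time. All 4 tested members of the list had positive differences (48.2% of all genes did), and 2 passed as rises (2.57% of all genes did). OAS2 at 1.05 (adjusted p = 0.0594) and OASL at 0.76 (adjusted p = 0.0737) did not pass. The list median was 1.5.

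BST2, the tether that holds budding virus particles at the cell surface, read 4.67, 78.7 and 65.8 in LacZi cells against 143.6, 238.5 and 454.2 in p53i cells, with a log2 difference of 2.30 (limma adjusted p = 0.00383). The LacZi 8 h array was far below the other LacZi arrays, and without the 8 h pair the difference was 1.97. It was 3.11 without the offset and 1.56 when the offset was 64. MX1, a GTPase that blocks viral entry and replication, read 6.60, 48.1 and 45.1 against 77.7, 193.5 and 267.5, with a log2 difference of 1.99 (adjusted p = 0.00353) that was 2.71 without the offset and 1.27 when it was 64. IFI6, an interferon-induced membrane protein, read 94.4, 91.3 and 141.6 against 295.3, 372.3 and 520.3, with a log2 difference of 1.71 (adjusted p = 0.000597). For all 3 genes the lowest p53i value lay above the highest LacZi value. BST2 and MX1 did not pass without the time block (adjusted p = 0.0608 for each), and IFI6 did (adjusted p = 0.00786).

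XAF1, an antagonist of the caspase inhibitor XIAP, read 2.49, 14.1 and 7.37 in LacZi cells compared with 35.4, 93.4 and 259.1 in p53i cells, with a log2 difference of 2.30 (limma adjusted p = 0.0206). Without the 50 h pair it was 1.67 and no longer passed (adjusted p = 0.0759). The other 2 probe sets of XAF1 gave mean log2 differences of 0.29 and 0.09. The rise rests on 1 of 3 probe sets and on LacZi values near background: XAF1 had a difference of 0.13 without the offset and 0.09 when probe sets were chosen on the 6 D3 arrays, where another probe set represented the gene (adjusted p = 0.904 in both), and 1.26 when the offset was 64. Without the time block it did not pass (adjusted p = 0.0593).

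Of 35 listed antiviral effectors, 23 passed the filter on signal, 16 rose and 0 fell. The share of all tested genes that rose was 2.57%. The differences of the 23 ran from 0.21 for ISG20 to 4.59 for IFI27, with a median of 1.17, and 21 of them were positive at all 3 times. The filter used mean signals over all 10 arrays, so a gene seen only in p53i cells could enter through those cells. With no filter all 35 were tested, 13 rose and the median was 0.96. Further members that rose were HERC6 (1.44), SAMD9 (1.42), PLSCR1 (1.34), IFITM1 (1.31), IFITM3 (1.14), SP110 (1.13), PARP12 (0.96), IFIT5 (0.95), IFITM2 (0.85) and LGALS3BP (0.55). IFITM1, a membrane protein that hinders virus fusion, read 566.5, 728.8 and 807.4 in LacZi cells against 987.3, 1889 and 2851 in p53i cells, and did not pass without the time block (adjusted p = 0.0573). Summed over the 23 genes, the signal was 12840 to 13320 in LacZi arrays and 18070 to 29820 in p53i arrays. LGALS3BP alone read 7529 to 8203 and 9786 to 13140, so the sum mostly follows bright members and does not describe each gene. These are lists chosen with earlier results of these arrays known, so their direction is a description and not independent evidence. The number of members called was 12 with all 10 arrays in 1 fit, 8 without the time block, and 6 with the ACTB ratio beside the block. It was 0 with that ratio in place of the block, 0 without an intensity trend, and 0 when the p53i 20 h array was left out of the fit without the block. The median stayed between 0.84 and 1.43 over every setting tried.

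**Figure D2:**
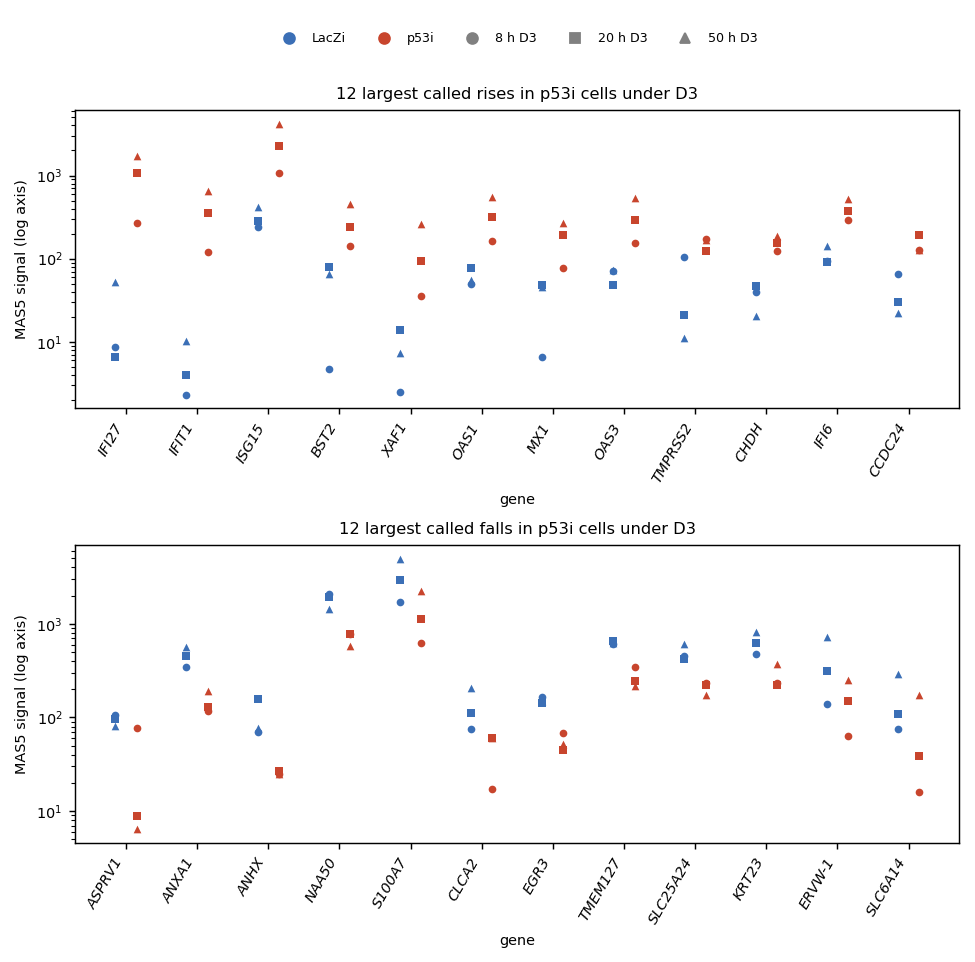
MAS5 signal of the 12 largest rises (top) and 12 largest falls (bottom) on a log axis, with 1 point per array, colour for the siRNA and shape for the D3 time. Each p53i value of the rises lies above every LacZi value of the same gene, and among the falls S100A7, ERVW-1 and SLC6A14 have groups that overlap.

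Signalling genes of the interferon pathway moved in both directions. IRF9, a DNA-binding transcription factor of the interferon response, read 227.6, 230.0 and 371.9 in LacZi cells compared with 552.2, 794.3 and 1144 in p53i cells, a log2 difference of 1.51 ± 0.12 (limma adjusted p = 0.000597) with no overlap. IRF7, which drives interferon genes, rose by 0.95 and STAT3 by 0.44. The receptor chains IFNAR1 (type I) and IFNGR1 (type II) fell by 0.76 and by 0.47. Of IFNAR1's 3 other probe sets 1 had the same sign. IFNAR1 lost its call without the 8 h or the 50 h pair, IFNGR1 without the 50 h pair and STAT3 without the 20 h pair, and IRF7 and both receptor chains lost theirs without the time block. Over the 16 tested genes of receptors, STATs and IRFs, 3 rose (2.57% of all genes did), 2 fell (2.42% of all genes did) and the median was 0.05. Of 8 interferon ligands with a probe set, 7 did not pass the filter on signal. Their values were mostly low and mixed: the IFNB1 probe set read 1.70 to 2.98 in LacZi cells and 3.75 to 17.9 in p53i cells, IFNA1 read 2.39 to 18.9 and 2.57 to 5.24, and IFNE read 7.29 to 37.5 and 1.85 to 30.7. IFNL2 read 6.75, 45.0 and 9.27 in LacZi cells against 33.9, 31.9 and 96.8 in p53i cells. It was thus higher in p53i cells at 8 and 50 h and lower at 20 h. The 1 tested ligand, IFNL1, had a difference of -0.10 (adjusted p = 0.885).

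Among sensors of double-stranded RNA, EIF2AK2, the kinase PKR that stops translation, rose by 0.62 (limma adjusted p = 0.0381). It read 539.5, 414.8 and 543.7 in LacZi cells against 602.5, 791.1 and 953.8 in p53i cells, which were apart but close at 8 h. It lost its call without the 20 h pair and without the time block. The 8 other tested members did not pass, with RIGI at 0.51 (adjusted p = 0.167) and IFIH1, which encodes MDA5, at 0.59 (adjusted p = 0.182). The list median was 0.21, and of all genes tested 2.57% rose.

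In the MHC class I pathway, which presents intracellular peptides, 4 of 16 tested genes rose (2.57% of all genes did) and 0 fell. They were HLA-B (0.69), the peptide transporter TAP1 (0.67), HLA-C (0.46) and B2M (0.34), the light chain of class I molecules. B2M read 7227, 7173 and 6487 in LacZi cells compared with 8614, 8884 and 8874 in p53i cells, which do not overlap. TAP1 and HLA-C lost their call whichever time pair was left out, HLA-B and B2M without the 20 h pair (adjusted p = 0.0662 and 0.196), and all 4 without the time block. HLA genes are near-identical to each other and probes can be shared between them, so the HLA values are uncertain in their source. The list median was 0.17, from 0.00 at 8 h to 0.26 at 20 h and 0.35 at 50 h.

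The 3 other genes among the 12 largest rises are on none of the interferon-induced lists. TMPRSS2, a membrane serine protease, read 104.0, 20.9 and 11.1 in LacZi cells against 170.6, 122.9 and 168.7 in p53i cells, a log2 difference of 1.77 (limma adjusted p = 0.028). LacZi values were lower at each later time while p53i values had no such order, and the difference was 0.64 at 8 h and 2.77 at 50 h. Untreated arrays read 37.2 and 10.8 with LacZi and 85.4 and 17.5 with p53 siRNA. The LacZi 8 h value was thus above both untreated LacZi values, and duplicates of this gene varied widely. Without the time block it did not pass (adjusted p = 0.0833). The other 3 probe sets of TMPRSS2 gave 0.09, 0.37 and 1.17. That with 0.37 was negative at 8 and 20 h (-0.38 and -0.82) and 2.30 at 50 h. On the brightest probe set the difference was 2.40 without the offset and 1.08 when the offset was 64. CHDH, the mitochondrial choline dehydrogenase, had a difference of 1.74 (adjusted p = 0.0125) on its brightest probe set, with signals of 40.3, 46.8 and 20.7 against 123.6, 154.6 and 186.5. Its 6 other probe sets gave -0.52 to 0.33. CCDC24 read 66.2, 30.4 and 22.1 against 128.4, 192.5 and 127.3, a difference of 1.63 (adjusted p = 0.0183), with groups apart.

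In bulk RNA, fewer cells that express a gene and less RNA per cell cannot be told apart. ANXA1, a phospholipid-binding protein that dampens inflammation, read 349.8, 456.4 and 570.9 in LacZi cells compared with 117.4, 129.8 and 193.8 in p53i cells. It fell by 1.55 ± 0.13 on the log2 scale (limma adjusted p = 0.000597), with fully separate groups. Among 9 tested annexins it was the 1 that fell, while ANXA3 (1.17), ANXA6 (1.02) and ANXA2 (0.46) rose. Of all genes tested, 2.42% fell and 2.57% rose.

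NAA50, the catalytic subunit of an N-terminal acetyltransferase, read 2082, 1937 and 1441 in LacZi cells against 778.9, 772.0 and 575.9 in p53i cells. It fell by 1.34 ± 0.08 (limma adjusted p = 0.000153), nearly equally at the 3 times, and its other 2 probe sets gave -1.13 and -0.87. TMEM127, a membrane protein that restrains mTOR signalling, read 607.9, 662.6 and 630.3 against 348.8, 244.0 and 216.7, with a log2 difference of -1.21 (adjusted p = 0.00353). Its other 2 probe sets gave -2.20 and -0.85. NAA50 and TMEM127 thus had the same sign on all 3 probe sets, with the groups of the brightest probe set apart.

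S100A7 (psoriasin), an antimicrobial protein of stressed epithelium, read 1707, 2952 and 4987 in LacZi cells compared with 627.0, 1129 and 2249 in p53i cells. The groups overlapped, since values were higher at each later time with either siRNA, and at each time p53i cells had less than LacZi cells. The log2 difference was -1.31 ± 0.08 (limma adjusted p = 0.000153), and without the time block it did not pass (adjusted p = 0.149). S100A9 and S100A8, the subunits of calprotectin, fell by 0.94 and by 0.65, S100A8 losing its call without the 20 h pair and without the block, and S100A9 read 7246, 7802 and 9554 against 3511, 3776 and 5777. Of 14 tested S100 genes, 3 fell (2.42% of all genes did), 0 rose (2.57% of all genes did) and the median was 0.03.

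KRT23, an epithelial keratin, read 475.5, 626.5 and 808.2 in LacZi cells against 231.3, 222.5 and 372.6 in p53i cells, a log2 difference of -1.17 (limma adjusted p = 0.00174). SLC25A24, a calcium-regulated carrier of adenine nucleotides in mitochondria, had a difference of -1.17 (adjusted p = 0.00899). EGR3, an immediate early transcription factor, read 165.5, 141.7 and 149.2 against 68.5, 44.9 and 52.2, a difference of -1.25 (adjusted p = 0.0136). These 3 genes had separate groups. With EGR3, MYC fell by 0.57, and they were the 2 of 18 immediate early genes that passed (2.42% of all genes fell). MYC did not pass without the time block (adjusted p = 0.0716).

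The other 5 of the 12 largest falls were less secure. ASPRV1, a skin protease, read 105.6, 96.2 and 80.9 in LacZi cells compared with 76.6, 8.89 and 6.41 in p53i cells, and its difference of -1.56 (limma adjusted p = 0.0499) no longer passed without the 20 h or without the 50 h pair. ANHX (-1.42) lost its call without the 20 h pair. CLCA2 (-1.25), a chloride channel regulator of epithelia, lost it without the 8 h or without the 50 h pair. SLC6A14 (-1.14), an amino acid transporter, lost it without the 8 h pair (-0.95, adjusted p = 0.065). ERVW-1 (-1.14), which encodes syncytin, kept its call when any 1 pair was left out. Its values overlapped, with 139.2, 315.7 and 719.7 in LacZi cells against 63.9, 149.2 and 251.1 in p53i cells. Without the time block, ERVW-1 (adjusted p = 0.289), ASPRV1 (0.131), CLCA2 (0.139) and SLC6A14 (0.353) did not pass, and ANHX stood at 0.05.

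CYP24A1 had far more signal in D3 arrays than in untreated ones with either siRNA. It was 34.9 and 40.0 in untreated LacZi cells and 34.5 and 23.7 in untreated p53i cells, and under D3 it was 5489, 5039 and 6476 in LacZi cells compared with 4824, 4502 and 4234 in p53i cells. The p53i values under D3 lay below every LacZi value, and the log2 difference of -0.32 ± 0.10 did not pass (limma adjusted p = 0.0914). It was -0.61 at 50 h and -0.17 without the 50 h pair. VDR read 760.5, 680.5 and 619.9 in LacZi cells against 578.9, 540.8 and 473.9 in p53i cells, a difference of -0.36 ± 0.09 (adjusted p = 0.0551) with separate groups. Of 10 tested genes for VDR, retinoid X receptors and their coregulators, 0 rose and 0 fell in limma's test, with 4 at an unadjusted p below 0.05. Of all genes tested, 21.6% had such a p.

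Among 25 tested targets of VDR, 2 rose, 3 fell and 20 did not pass, with a median of -0.11. In all tested genes 2.57% rose and 2.42% fell. SLC26A2, a sulphate transporter, read 401.6, 900.3 and 1664 in LacZi cells and, in the same order of time, 220.0, 373.8 and 710.3 in p53i cells, with overlap between times but not within one. Its difference was -1.09 ± 0.11 (limma adjusted p = 0.00162), and its other 2 probe sets gave -1.07 and -0.75. It kept its call without each pair and lost it without the time block (adjusted p = 0.261). THBD (thrombomodulin), which switches thrombin to an anticoagulant role, read 115.8, 103.1 and 186.0 in LacZi cells compared with 56.3, 56.6 and 55.8 in p53i cells. The p53i values of THBD lay below every LacZi value, and the difference of -1.02 (adjusted p = 0.0395) did not pass without the 8 h pair (0.0737), the 50 h pair (0.135) or the time block (0.0598). ATP2B1, the plasma membrane calcium pump PMCA1, read 685.2, 707.9 and 848.9 against 587.3, 486.5 and 487.9, a difference of -0.51 (adjusted p = 0.0398) that did not pass without the 20 h pair (0.0607), the 50 h pair (0.118) or the block (0.062).

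LRP5, a Wnt co-receptor, and CALB1, the calcium buffer calbindin-D28k, went the other way. LRP5 read 234.1, 276.5 and 234.9 in LacZi cells against 503.1, 492.1 and 600.2 in p53i cells, a difference of 1.05 (limma adjusted p = 0.00363), while its other, dim probe set gave -0.93. CALB1 read 133.7, 147.5 and 129.3 against 226.5, 248.9 and 235.8, a difference of 0.73 (adjusted p = 0.0276), with groups apart. In untreated cells CALB1 read 116.7 and 103.3 with LacZi siRNA against 236.8 and 232.9 with p53 siRNA. The untreated differences were 0.995 for CALB1 and -0.996 for THBD, of a size with those under D3. They were 0.22 for LRP5, -0.61 for SLC26A2 and -0.04 for ATP2B1. CALB1 lost its call without the 8 h pair (0.0687) or the 20 h pair (0.0583), and LRP5 kept its call without each pair and without the block. In the calcium channel, pump and buffer list, 2 of 17 tested genes rose (ATP2C2 and CALB1) and 2 fell (ATP2B1 and ATP2B4). The shares over all genes were 2.57% and 2.42%. ATP2B4 lost its call whichever pair was left out, and ATP2C2 without the 8 h or the 20 h pair.

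**Figure D3:**
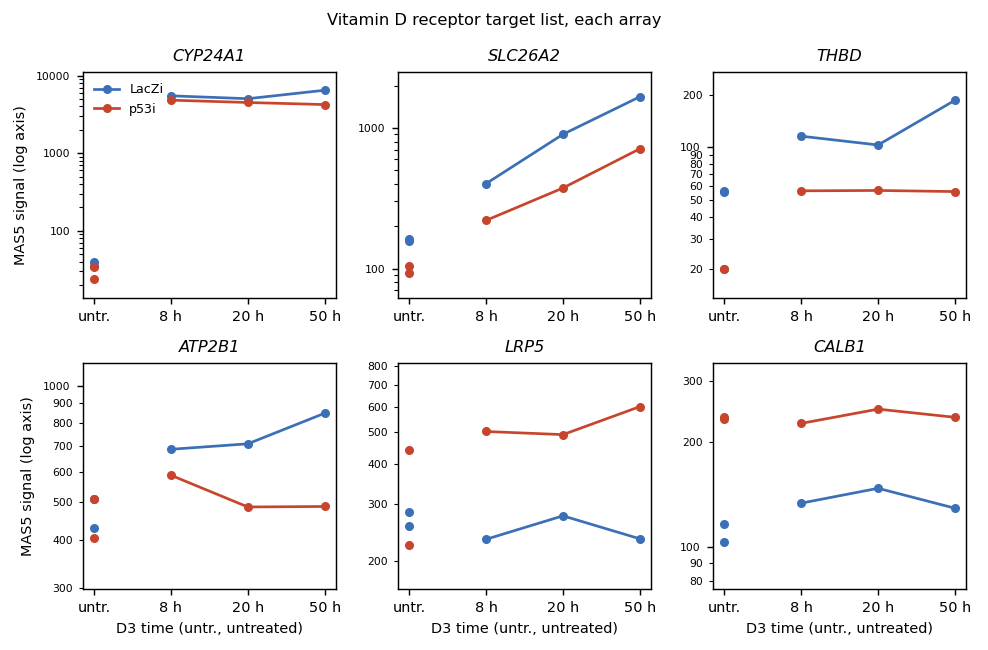
MAS5 signal (log axis) of CYP24A1 and the 5 VDR targets that passed the test, in each untreated array (2 per siRNA) and at 8, 20 and 50 h of D3, with lines joining the D3 arrays of 1 siRNA. CYP24A1 reached 4234 to 6476 in D3 arrays of either siRNA, SLC26A2 was higher at each later time with p53i below LacZi, and CALB1 and LRP5 were higher in p53i cells at each D3 time. Untreated p53i arrays likewise had more CALB1 and less THBD than untreated LacZi arrays.

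Of 25 tested genes that wild-type p53 activates, 1 rose and 0 fell, against 4.99% of all genes that passed, and the median was -0.01. CYFIP2, a regulator of actin assembly, was the riser, with 582.6, 374.0 and 253.0 in LacZi cells against 1306, 1013 and 840.8 in p53i cells, a log2 difference of 1.40 ± 0.11 (limma adjusted p = 0.000597). CDKN1A, the cell-cycle inhibitor p21, read 340.1, 399.6 and 459.1 against 130.9, 304.7 and 345.8, with a difference of -0.68 (adjusted p = 0.0594), most of it at 8 h (-1.28). MDM2, the ubiquitin ligase of p53, had a difference of 0.02 (adjusted p = 0.958), positive at 8 and 20 h and negative at 50 h. Of 17 tested genes reported to depend on mutant p53, SQLE rose, MCM6 and MYC fell, and the median was -0.13. Of all genes 2.57% rose and 2.42% fell. SQLE lost its call without the 8 h or the 20 h pair.

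Of 37 tested mitotic (G2/M) genes, 31 had negative differences (51.7% of all genes did), 3 passed as falls (KIF11 -0.53, HMMR -0.49 and MAD2L1 -0.45) and 0 as rises, and the median was -0.15. Of all genes 2.42% fell. KIF11, the spindle motor, read 511.5, 400.0 and 290.2 in LacZi cells compared with 379.0, 274.1 and 177.8 in p53i cells, overlapping across times. KIF11 and MAD2L1 lost their call whichever pair was left out, HMMR without the 8 h or the 50 h pair, and all 3 without the time block (adjusted p = 0.313, 0.206 and 0.219). Of 36 tested G1/S genes, TK1 rose (0.40) and MCM6 fell (-0.54), TK1 not without the 20 h pair or without the block. Of all genes 2.57% rose and 2.42% fell. CDKN2A, which encodes p16 and ARF, read 579.7, 584.6 and 608.7 against 319.6, 410.4 and 393.9 and fell by 0.64 (limma adjusted p = 0.0148). It was the 1 call among 12 CDK inhibitors and D cyclins, where 4.99% of all genes passed. The other 2 probe sets of CDKN2A gave -0.10 and -0.94. Of 12 tested genes of the BCL2 family BCL2L11 (BIM) fell by 0.47, the 1 call there. Of 17 caspases and death receptors CASP2 rose by 0.37 and CASP4 fell by 0.67. These counts stand beside the same 2.57% of rises and 2.42% of falls over all genes. Of CASP2's 6 other probe sets 3 had the same sign. BCL2L11 lost its call without the 50 h pair, CASP2 and CASP4 without the 8 h or the 20 h pair, and all 3 without the block.

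Of 21 tested luminal epithelial genes, 6 rose (2.57% of all genes did), 0 fell and the median was 0.31. KRT8 read 9993, 9896 and 11000 in LacZi cells against 13140, 13090 and 15440 in p53i cells, a log2 difference of 0.43 (limma adjusted p = 0.0163) with groups apart. FOXA1, a pioneer factor of the luminal lineage, rose by 0.59, but its other probe set gave -0.01. CLDN3, TFF3, XBP1 and ELF3 also rose, with 0.50, 0.86, 0.32 and 0.31. KRT8 lost its call without the 20 h pair, TFF3 without the 8 h pair and XBP1 without either, and CLDN3, TFF3 and XBP1 lost theirs without the block. Of 6 tested basal and 5 tested mesenchymal genes, 0 passed in limma's test, and at an unadjusted p below 0.05 there were 1 and 1 (21.6% of all genes). ERBB2 read 13830, 13760 and 14110 against 14720, 13950 and 19100, with a difference of 0.18 (adjusted p = 0.306), and among 13 tested neighbours on its amplicon PGAP3 (0.50) and ORMDL3 (0.53) rose. In the ERBB receptor and ligand list, 1 of 8 tested genes fell (2.42% of all genes did). This was ERRFI1, a feedback inhibitor of these receptors, which fell by 0.55, but not without the 8 h pair.

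In lipid metabolism, 3 of 16 tested genes of the mevalonate and cholesterol pathway rose (2.57% of all genes did) and 1 fell (2.42% did). MSMO1 read 1411, 1461 and 1757 in LacZi cells compared with 2184, 2475 and 2108 in p53i cells, a log2 difference of 0.55 (limma adjusted p = 0.0191). SQLE and MVK rose by 0.37 and 0.46, TM7SF2 fell by 0.36, and the list median was 0.24. FABP5, a fatty acid carrier, read 107.0, 111.2 and 128.9 against 51.5, 52.4 and 45.3 and fell by 1.00 (adjusted p = 0.0391). FABP5 and TM7SF2 lost their call whichever pair was left out, MVK without the 8 h or the 20 h pair, and the difference of FABP5 was -1.22 without the offset and -0.66 when the offset was 64. ELOVL6, a fatty acid elongase, fell by 0.58. Elsewhere, GCLM of glutathione synthesis fell by 0.63, the 1 call among 14 redox genes (2.42% of all genes fell). It did not pass without the 50 h pair or the block. In limma 0 of 14 NF-kB genes and 0 of 11 ERK feedback genes passed, with 2 and 3 at an unadjusted p below 0.05 (21.6% of all genes).

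The untreated arrays do not enter the test under D3, although the probe set of each gene and the filter were chosen on means over all 10 arrays. They gave the same sign for 555 of the 600 genes (92.5%), against 7857 of all 12022 genes (65.4%). An unadjusted p below 0.05 with the same sign was reached by 272 of the 600 (45.3%), against 9.51% of all genes. IFI27 had a log2 difference of 3.86 in untreated cells, IFIT1 of 3.0 and ISG15 of 2.63, and the median of the antiviral effectors was 1.12. ANXA1 (-1.66), NAA50 (-0.91) and S100A7 (-1.16) had negative differences there as well. On their own, the 4 untreated arrays gave 1 called gene in limma (0.00832% of those tested), IFI27, and 1359 genes with an unadjusted p below 0.05.

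**Figure D4:**
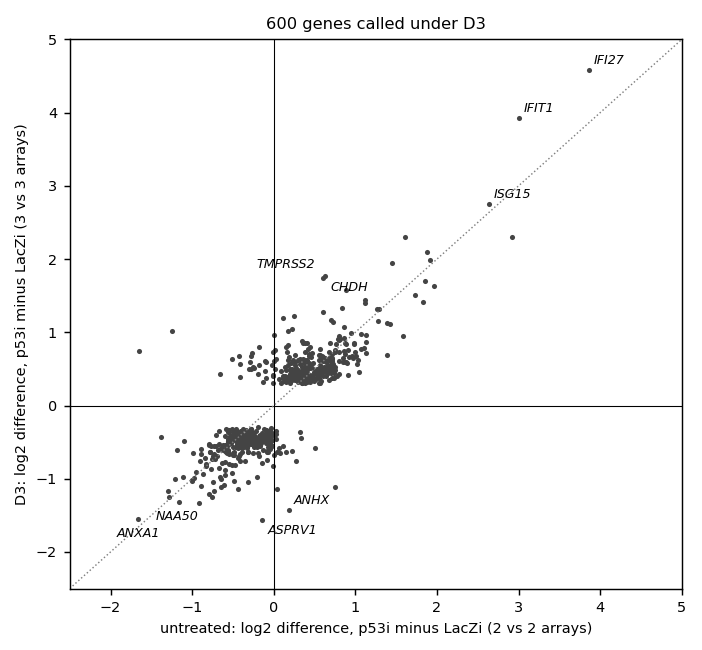
Each point is 1 of the 600 genes called under D3, with the log2 difference between siRNAs in untreated cells (2 against 2 arrays) on the x axis and under D3 (3 against 3 arrays) on the y axis, and the dotted line marks equal differences. Of these genes 555 lie in the lower left or upper right quadrant, IFI27, IFIT1 and ISG15 lie far along the line, and ANHX and ASPRV1 lie near 0 on the x axis.

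A test of the difference itself, the siRNA difference under D3 minus that without D3, called 0 of 12022 genes in limma (645 at an unadjusted p below 0.05, 5.37%). The smallest adjusted p was 0.748. The 5 genes with the smallest unadjusted p were IL17C (2.26), MAP3K12 (1.28), YWHAZ (-0.69), HACD3 (0.70) and TPR (0.79), as log2 differences of differences. For the difference under D3, 1 of 4 other probe sets of YWHAZ and 2 of 4 of TPR had the sign of the brightest. For HACD3 these were 2 of 3 and for MAP3K12 1 of 2, and IL17C had 0 other probe sets. IL17C, an epithelial cytokine, read 25.3, 35.7 and 87.6 in LacZi cells against 80.1, 102.5 and 145.6 in p53i cells under D3, but 112.0 and 98.6 against 42.3 and 29.1 untreated. Without the p53i untreated array 1, the test called 61 genes, 58 of them with a more positive difference under D3. The p53i untreated array then left has an ACTB ratio of 8.72, the highest of the 10 arrays, and its part in the result was not tested. ERVW-1 had a difference of 0.04 untreated against -1.14 under D3, and its interaction of -1.18 had an unadjusted p of 0.00477. For LRP5 the interaction was 0.83 (unadjusted p = 0.0301), for SLC26A2 -0.48 (0.0486), for FOXA1 0.88 (0.00217), and none of these passed adjustment. For the other called VDR targets it was -0.03 (THBD, unadjusted p = 0.943), -0.27 (CALB1, 0.291) and -0.47 (ATP2B1, 0.0657). The median SE of the interaction over genes was 0.25.

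The antiviral effectors had medians of 0.86, 1.15 and 1.63 at 8, 20 and 50 h, and the oligoadenylate synthetases had 0.79, 1.41 and 2.08. The ISG15 list of 3 tested genes had 0.64, 0.64 and 0.48. OAS1 had log2 differences of 1.46, 1.83 and 2.98 and IFITM1 of 0.79, 1.35 and 1.80 at the 3 times, while MX1 (2.05, 1.71 and 2.21) and NAA50 (-1.40, -1.31 and -1.30) had no such order. Of the 600 called genes, 270 (45%) had their largest absolute difference at 50 h, against 39.5% of all genes. The difference at 50 h minus that at 8 h called 0 genes in limma, with 266 (2.21%) at an unadjusted p below 0.05. Its median SE was 0.43, since each time had 1 array per siRNA, so a difference between times of the size seen in these medians was not detectable for single genes. The smallest adjusted p, 0.314, belonged to QNG1, where the LacZi 8 h array read 445.5 and the other 5 D3 arrays 1913 to 2832.

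**Figure D5:**
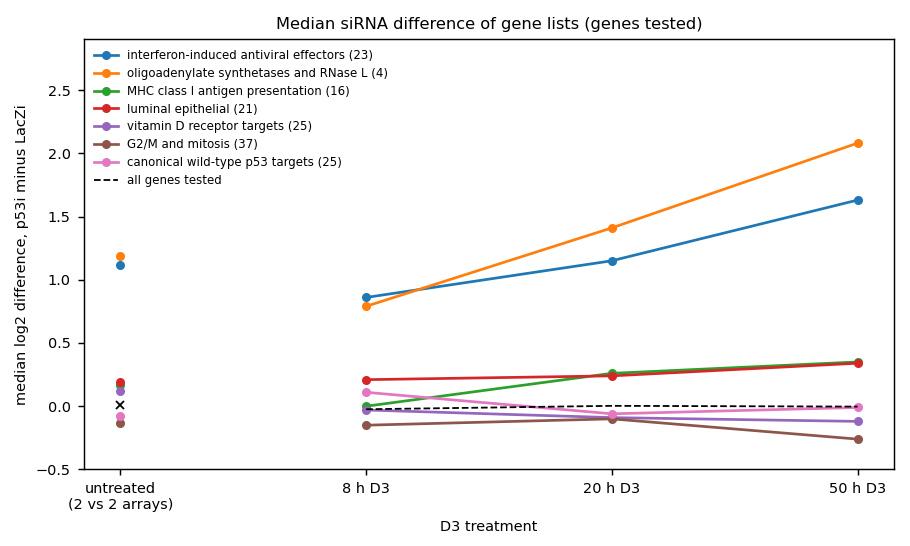
Median log2 difference, p53i minus LacZi, of the tested members of 7 gene lists (number of genes in brackets) in untreated cells and at 8, 20 and 50 h of D3, with the median of all genes as a dashed line. Antiviral effectors go from 0.86 to 1.63 and oligoadenylate synthetases from 0.79 to 2.08 between 8 and 50 h, while the VDR and p53 targets lie between -0.12 and 0.11 under D3.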

How the data were processed

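RNA of SKBR3 cells was hybridised to 1-colour Affymetrix arrays. The authors deposited a table of linear intensity values, 1 per array for 54675 probe sets, made with MAS5 per the submitters' processing notes, in a version the sources used here do not give. Trimmed means were equal on all arrays: the deposited values were already scaled and were not normalized again. Depth does not apply to arrays, and the number of arrays limits the precision. The platform annotation supplied gene names: 41097 probe sets had 1 gene symbol, 1801 several and 11777 none. Each gene was represented by its probe set with the highest mean over the 10 arrays, and the upper 50% by mean (signal above 35.4) were kept, which left 12022 genes.

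Values were log2(signal + 16). The two-sided tests were those of limma 3.58.1 under R 4.3.3 (lmFit, then eBayes with its trend option), and p-values were adjusted over all genes (Benjamini-Hochberg, threshold 0.05). The comparison under D3 used the 6 D3 arrays with D3 time as a block, which pairs the arrays and leaves 2 residual degrees of freedom. The interaction and the difference between 50 and 8 h used all 10 arrays. The fits were tested on simulated data. The members and the gene lists were chosen with earlier results of these data known. The genes named are the 12 largest rises and 12 largest falls among called genes of 1 sign at all times, up to 5 called or leading members of each list, the 5 smallest p of the other tests, and VDR, CYP24A1, CDKN1A, MDM2, ERBB2 and IGFBP3. A gene outside this rule was chosen after its values were seen. The alternatives tried were the offset, normalization, filter, probe-set rule, trend, block and arrays left out. The ACTB ratio beside the time block was added after the data were seen.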

Additional observations from a re-analysis of the deposited data

How the results depend on the processing

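The 600 genes called under D3 became 289 with no filter on signal, 192 with the mean of each gene's probe sets, 199 with no D3 time block, 77 with all 10 arrays in 1 fit and 0 with no intensity trend, where the smallest adjusted p was 0.184. With the ACTB 3' to 5' ratio in place of the block the count was 0, and with the ratio beside the block, chosen after seeing the data, it was 64. Leaving out 1 time pair gave 422 to 551 genes, and without the block the counts were 65, 22 and 50 with LacZi at 8, 20 or 50 h left out and 386, 0 and 90 with p53i at 8, 20 or 50 h left out. The causes were not tested. The other settings (offsets of 0 and 64, quantile normalization, median centring, upper 25% of probe sets, single probe sets, probe sets chosen on the 6 D3 arrays) gave 554 to 728. The interaction called 61 genes without p53i untreated array 1 and 0 under every other setting, and the replicate number as a block changed no call there (0 genes, 986 at an unadjusted p below 0.05). The difference at 50 h minus 8 h called 1 gene, QNG1, when LacZi untreated array 1, LacZi untreated array 2 or p53i untreated array 1 was left out.

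A named gene turned sign in 10 combinations of gene and setting. With the mean of probe sets, ATP2C2 became -0.01 and XBP1 -0.18. MDM2 became -0.11 without the 8 h pair and -0.08 without the 20 h pair. In fits with no block MDM2 was -0.01, -0.04, -0.19 and -0.05 without LacZi at 20 h, LacZi at 50 h, p53i at 8 h and p53i at 20 h. IGFBP3 became 0.03 without the 50 h pair, and TM7SF2 0.01 with no block and without LacZi at 50 h. With 1 array per siRNA and time, calls of genes near the threshold are unstable, and low signals give uncertain folds.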

Other observations

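Outside the lists, the called genes with changes of at least 2-fold, chosen after their values were seen, included the following. The iron exporter SLC40A1 (ferroportin) rose by 1.31 on the log2 scale (limma adjusted p = 0.000838) and the lysosomal amino acid transporter SLC36A1 by 1.22 (0.0191). LXN, a carboxypeptidase inhibitor, fell by 1.11 (0.00524), and ECE2, an endothelin-converting enzyme, by 1.01 (0.00257). LY6D, a surface protein of stratified epithelium, fell by 1.05 (0.0157).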
